A study of Litchi chinensis with 30 samples.

Results

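Terpene synthases are the enzymes that turn prenyl diphosphates into the terpenes of flower scent, and 106 of the 37234 genes in the litchi flower table were taken as terpene synthases because their Pfam domain annotation contains the words "Terpene synthase". They lie in 93 loci, and 20 of them are genes that the authors added to the annotation as new. The alpha-farnesene synthase LITCHI029350.m1.gene is among them. The rule reads the annotation text alone.

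Whole flowers of the litchi cultivar Feizixiao (Litchi chinensis) were sequenced in 30 libraries of 10 groups with 3 replicates each. Functionally female flowers (F1 to F5) and functionally male flowers (M1 to M5) were taken at 5 stages, of which stages 1 to 3 were buds of increasing size, stage 4 was partial bloom and stage 5 was full bloom. The labels give no treatment for any group. Functionally female flowers also carry stamens and functionally male flowers also carry a pistil that does not set fruit, so each group mixes organs of both kinds.

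Terpenes are built from small prenyl units that plants make in the cytosol and in the plastid. The mevalonate route supplies mostly the farnesyl diphosphate of the cytosol, from which sesquiterpenes such as farnesene, germacrene D and copaene are formed. The methylerythritol phosphate (MEP) route of the plastid supplies geranyl and geranylgeranyl diphosphate, from which monoterpenes such as limonene and linalool, and the diterpene precursors of gibberellins, are formed. In many flowers the volatile products are released at opening and attract insects.

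The product names used here are those of the best Swiss-Prot match in the deposited annotation, and no enzyme activity was measured. By these names 23 members were farnesene synthases, 22 made other sesquiterpenes and 9 made monoterpenes such as limonene and myrcene. A further 7 were linalool or nerolidol synthases, 4 isoprene synthases, 4 geranyllinalool or related synthases, and 4 belonged to the gibberellin branch (ent-copalyl diphosphate and ent-kaurene synthases). The remaining 33 had no single product in their name. Of all members, 71 carried both the N-terminal and the metal binding domain, 21 the metal binding domain alone and 14 the N-terminal domain alone. One of the 33, LITCHI023751.m1.gene, carried a metal binding domain but was named a strigolactone esterase.

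Not every member was expressed. There were 16 without a count in any library, while 46 reached a mean of at least 1 FPKM (fragment counts scaled for transcript length and library size) in some group and 21 reached at least 10 FPKM. Of the 46, 42 carried both domains, against 71 of all 106. The filter on low counts kept 63 members for testing, all 46 above and 17 that stayed under 1 FPKM in every group, and 43 were not tested. A member can pass this filter through 1 high group alone, so counts over the 63 describe these members only. There were 21 members in 8 loci that hold several table entries, and reads of such near-identical entries can be split between them.

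Total counts per library ranged from 27433038 to 43760285, with a median of 34876110. The third library of F2 stood apart from the other F2 libraries, with a summed level of terpene synthases of 189.9 FPKM against 447.3 and 357.2 FPKM. Its summed level of 13 tapetum and pollen wall genes was 1133 FPKM against 406 and 899 FPKM. AGL11, an ovule identity gene, was measured at 12.5 to 13.5 FPKM in F5 and 0.175 to 0.544 FPKM in M5. CRABS CLAW, a carpel and nectary gene, was higher in M5, at 416 to 458 FPKM, than in F5, at 159 to 282 FPKM.

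The summed level of all 106 members was lowest at stage 3 and highest in open flowers. The mean sum in female flowers was 343 ± 10.54 FPKM (SD, n = 3) in F1, 332 ± 131 in F2, 195 ± 27.3 in F3, 629 ± 32.2 in F4 and 509 ± 36.4 in F5. In male flowers it was 285 ± 5.39 FPKM (SD, n = 3) in M1, 294 ± 9.62 in M2, 169.6 ± 3.59 in M3, 933 ± 38.3 in M4 and 1015 ± 58.4 in M5. Male means were 0.833 of the female mean at stage 1, and 1.48 times it at stage 4 and 1.99 times at full bloom. These FPKM ratios lack the library scaling factors used in the tests, 1.05 to 1.16 in F5 and 0.774 to 0.812 in M5. They are therefore not on the scale of the fold changes given below. The libraries of the sexes did not overlap at stages 1, 4 and 5 and overlapped at stage 2. At stage 3 the male libraries, at 166.1 to 173.3 FPKM, lay just under the female libraries, at 173.6 to 225.7 FPKM.

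The family was led by different genes as flowers opened. In all 6 bud groups the most abundant member was Litchi_chinensis_newGene_1755, a germacrene D synthase by name, with 27.1% of the family's FPKM in F1 and 23.9% in M1. At stage 4 it was LITCHI021197.m2.gene, named terpene synthase 9, with 24.05% in F4 and 29.9% in M4. At stage 5 it was LITCHI029391.m8.gene, a limonene synthase by name, with 33.9% in F5 and 36.4% in M5. The 3 most abundant members together held 75.3% of the family's FPKM in M5, against 63.8% in F5. In M5, 61 of the 106 members had no count, against 32 in F5, 33 in F1 and 36 in M1. Over all genes, M5 libraries also had the fewest with 10 counts, from 23036 to 23402, against 24917 to 25476 in F5 and 24134 to 24669 in F1. Total counts were 27433038 to 36428418 in M5, under the 39242273 to 43760285 in F5 but near the 29930722 to 36276142 in F1. Whether the loss was particular to terpene synthases was not tested. Of the 46 members that reached 1 FPKM, 16 had their highest mean in F1 and 9 in M5.

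**Figure D1:**
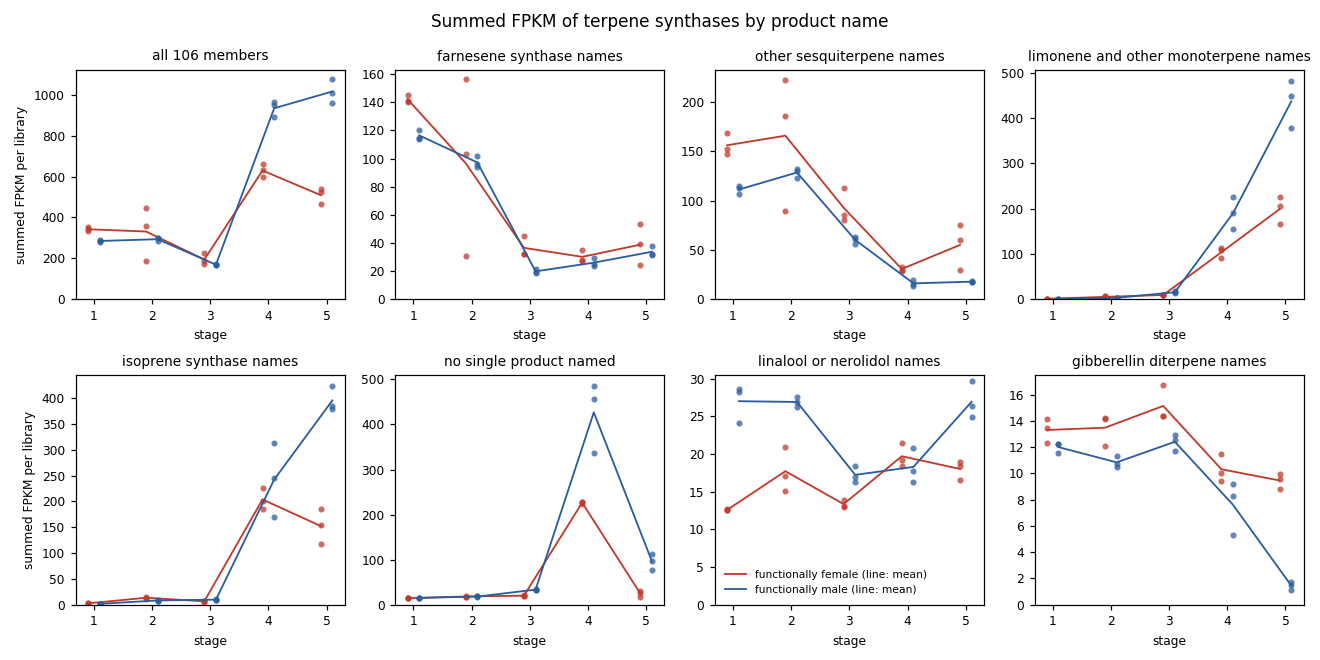
Summed FPKM of the members in each product name group by stage, with each point 1 library, lines through the means of 3 libraries, functionally female flowers in red and functionally male flowers in blue. The mean farnesene sum was highest at stage 1 in both sexes, the libraries of M3 lay at 18.7 to 21.9 FPKM, and the other sesquiterpene sum was lower at stages 4 and 5 than at stage 1 in every library, whereas sums of the monoterpene and isoprene names were high in open flowers and highest in M5.

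LITCHI029350.m1.gene, the alpha-farnesene synthase, was low in buds of both sexes and higher in open flowers, and it was higher in male than in female flowers at every stage. In female flowers it was measured at 0.656, 0.60 and 0.747 FPKM in F1, 0.20, 0.535 and 0.284 in F2, and 0.282, 0.258 and 0.305 in F3. In open female flowers it stood at 10.3, 7.49 and 5.30 FPKM in F4 and at 9.39, 7.40 and 13.2 in F5. In male flowers it was measured at 1.36, 1.63 and 2.18 FPKM in M1, 1.15, 0.842 and 0.979 in M2, and 2.61, 2.31 and 1.79 in M3, then at 19.5, 17.6 and 16.9 in M4 and 25.7, 30.7 and 26.2 in M5. At each of the 5 stages the lowest male library was above the highest female library.

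The differences of LITCHI029350.m1.gene were called by edgeR's quasi-likelihood test at a false discovery rate (FDR, Benjamini-Hochberg over all tested genes) below 0.01 with at least a 2-fold difference. The log2 fold change, female minus male, was -1.42 ± 0.27 (SE, FDR = 0.0018) at stage 1, -1.54 ± 0.28 (FDR = 0.00246) at stage 2 and -3.03 ± 0.29 (FDR = 1.53e-06) at stage 3. It was -1.45 ± 0.25 (FDR = 5.57e-05) at stage 4 and -1.95 ± 0.25 (FDR = 6.16e-07) at stage 5. From stage 1 to stage 5 the gene rose by 3.8 ± 0.28 on the log2 scale in female and by 4.32 ± 0.28 in male flowers, and the difference between these changes, -0.52 ± 0.36, did not pass the test (FDR = 0.257). The calls at the first 2 stages were less firm. The stage 1 call was lost when only the F1 and M1 libraries were fitted (edgeR FDR = 0.0103) and without the first or second F1 library or the third M1 library (edgeR FDR = 0.0123, 0.0153 and 0.0175). The stage 2 call was lost when only the F2 and M2 libraries were fitted (edgeR FDR = 0.221) and without the first M2 library (edgeR FDR = 0.0161).

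In the order of mean levels, LITCHI029350.m1.gene stood at 27.5 ± 2.75 FPKM (SD, n = 3) in M5, then M4, F5, F4, M3, M1, M2, F1, F2 and F3, where it was 0.282 FPKM. Neighbours in this order whose libraries overlapped were F5 and F4, M3 and M1, and F2 and F3. The members with the most similar pattern, by Pearson correlation of log2 CPM (counts scaled to library size) over the 30 libraries, were LITCHI029355.m1.gene (r = 0.923), LITCHI021188.m1.gene (r = 0.899) and LITCHI021187.m1.gene (r = 0.893). These libraries share stages and depth, and the coefficients carry no test.

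LITCHI029355.m1.gene, also named alpha-farnesene synthase, was measured at 1.93, 1.53 and 2.71 FPKM in F5 and at 5.04, 6.36 and 4.81 FPKM in M5. Its libraries did not overlap between the sexes at any stage. It was called lower in female flowers at stage 1 (-2.02 ± 0.42), stage 2 (-3.05 ± 0.44) and stage 5 (-1.88 ± 0.39), with edgeR FDR of 0.0045, 0.000313 and 0.000268. The call at stage 2 was lost when only F2 and M2 were fitted (edgeR FDR = 0.119), and that at stage 1 was lost in that kind of fit (edgeR FDR = 0.0307) and without any 1 of 5 of the 6 libraries compared, with edgeR FDR between 0.012 and 0.0361.

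Among the 16 tested farnesene names, LITCHI029350.m1.gene and LITCHI029355.m1.gene rose from stage 1 to stage 5 in both sexes, while 7 fell in female flowers, where 7.31% of all tested genes fell, and 11 fell in male flowers, where 21.5% did. LITCHI016232.m1.gene, the most abundant of them, was measured at 62.9, 63.6 and 60.8 FPKM in F1 and at 49.9, 51.5 and 49.7 FPKM in M1. In F5 it was at 7.29, 13.8 and 19.1 FPKM, and in M5 at 0.344, 0.361 and 0.636 FPKM. The libraries of open flowers thus lay under those of the youngest buds in both sexes, and the M5 libraries lay under all F5 libraries. It fell by 2.32 ± 0.37 on the log2 scale from F1 to F5 and by 6.46 ± 0.47 from M1 to M5, and it was higher in female flowers at stage 4 (2.73 ± 0.39, FDR = 5.6e-06) and stage 5 (4.39 ± 0.43, FDR = 8.99e-09). At stages 1 to 3 it was not called between the sexes.

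Its neighbour by identifier, LITCHI016231.m1.gene, had 23.1 to 24.9 FPKM in F1 and 18.1 to 19.0 FPKM in M1, and 2.08 to 6.06 FPKM in F5 against 0.0201 to 0.234 FPKM in M5. It was higher in female flowers at stage 4 (2.79 ± 0.44, edgeR FDR = 1.84e-05) and stage 5 (4.24 ± 0.49, edgeR FDR = 9.2e-08). A further 3 genes were close to or at 0 in M5. LITCHI016235.m1.gene had no count in M4 or M5 and was at least 17.1-fold higher in F4 and at least 21.3-fold higher in F5, where 0 was set to 3 counts over the group. Its stage 4 call was lost when only F4 and M4 were fitted (edgeR FDR = 0.0129). LITCHI029161.m1.gene had no count in M5, 0.991, 2.53 and 1.79 FPKM in F5, and was at least 106-fold higher in F5. LITCHI029162.m1.gene had 0, 3.09 and 2.17 FPKM in F5 and no count in M5, a difference of at least 102.6-fold over the group, but its first F5 library was at 0 and overlapped with M5.

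Of 16 tested farnesene members, 12 were called at stage 5, 10 higher and 2 lower in female flowers, where 29.2% of all tested genes were called, 17.6% higher and 11.6% lower. The 2 that were lower were LITCHI029350.m1.gene and LITCHI029355.m1.gene, and the 10 that were higher had identifiers in 2 runs, LITCHI016231 to LITCHI016236 and LITCHI029159 to LITCHI029162. Gene positions were not used here, so the distance between these genes is not given. As a description of values already used for the call, the 10 summed to 137 to 142 FPKM in F1, 110.8 to 116 in M1, 12.7 to 34.6 in F5 and 0.526 to 0.95 in M5. The 2 others held 0.514% to 0.714% of all farnesene-named FPKM in F1, 1.78% to 2.68% in M1, 22.8% to 46.7% in F5 and 96.2% to 97.8% in M5. The summed level of all 23 farnesene members in open flowers overlapped between the sexes, at 24.3 to 53.2 FPKM in F5 and 31.5 to 37.9 FPKM in M5.

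**Figure D2:**
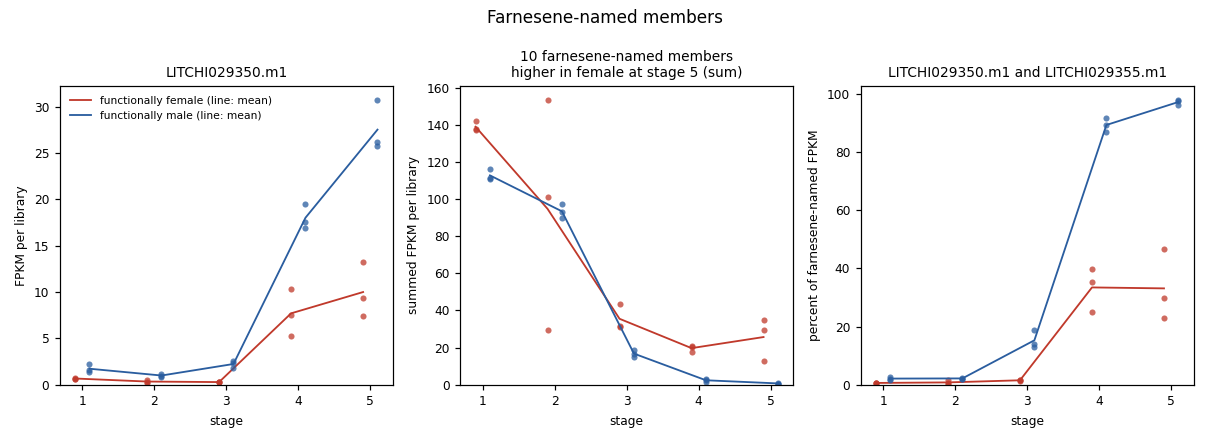
LITCHI029350.m1.gene in FPKM (left), the summed FPKM of the 10 farnesene-named members that were higher in female flowers at stage 5 (middle), and the share of farnesene-named FPKM held by LITCHI029350.m1.gene and LITCHI029355.m1.gene (right, percent), each by stage with 1 point per library and lines through means. The share was 96.2% to 97.8% in M5 and 22.8% to 46.7% in F5.

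LITCHI029364.m1.gene, a farnesene synthase by name that stayed under 1 FPKM, was called lower in F4 (0.111, 0.185 and 0.108 FPKM) than in M4 (0.621, 0.368 and 0.310 FPKM), by -1.89 ± 0.53 (edgeR FDR = 0.005). This call was lost when only these groups were fitted (edgeR FDR = 0.0116) and without the first or the third F4 library or the first M4 library (edgeR FDR = 0.0249, 0.0245 and 0.0275).

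Among the other sesquiterpene synthases, the germacrene D synthase Litchi_chinensis_newGene_1755 fell in both sexes and did not pass the test between them at any stage. It was measured at 91.4, 90.3 and 97.1 FPKM in F1, 163, 135 and 59.3 in F2, and 17.6, 33.7 and 31.1 in F5. In male flowers it was at 65.6, 65.9 and 73.1 FPKM in M1 and 16.8, 14.9 and 16.9 in M5. The third F2 library was the lowest of its group, and the F5 and M5 libraries lay under all stage 1 libraries. From stage 1 to stage 5 the gene fell by 1.85 ± 0.24 on the log2 scale in female and by 1.79 ± 0.24 in male flowers, and from stage 3 to stage 4 by 2.11 ± 0.25 and 1.69 ± 0.24.

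A second set of sesquiterpene synthases kept a level in open female flowers that was near 0 in open male flowers. Litchi_chinensis_newGene_1310, a germacrene D synthase by name, was at 4.33, 2.76 and 3.53 FPKM in F1 and at 3.60, 3.89 and 3.77 FPKM in M1. At full bloom it was at 2.78, 8.36 and 13.96 FPKM in F5, and at 0, 0 and 0.0588 FPKM in M5. The stage 1 libraries overlapped, and the stage 5 libraries did not. It was higher in female flowers by 5.03 ± 0.63 at stage 4 (FDR = 8.6e-07) and by 7.75 ± 0.73 at stage 5 (FDR = 3.68e-09).

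Litchi_chinensis_newGene_3554, a copaene synthase by name, was at 0.831, 3.14 and 5.04 FPKM in F5 and had no count in M5, so that it was at least 214.8-fold higher in F5. At stage 4 it was at 1.16, 0.810 and 0.897 FPKM in F4 and at 0.0313, 0.0568 and 0.0186 FPKM in M4, a difference of 4.25 ± 0.48 (FDR = 4.14e-07). Litchi_chinensis_newGene_1580, a germacrene D synthase by name, was at 0.0968, 0.775 and 2.23 FPKM in F5 and had no count in M5, and was at least 28.9-fold higher in F5. In each of these 3 genes the first F5 library was the lowest of its group. The same library was also the lowest F5 library in the summed level of the other sesquiterpene names, with 29.6 FPKM against 60.3 and 75.3 FPKM.

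Litchi_chinensis_newGene_1596, a germacrene D synthase by name, differed between the sexes already in buds. It was measured at 11.7, 11.5 and 12.3 FPKM in F1 and at 2.93, 2.21 and 1.86 FPKM in M1. In F3 it was at 1.06, 0.801 and 0.536 FPKM, and in M3 at 0.0252, 0.0178 and 0 FPKM. Female libraries were above male libraries at all 5 stages. It was called higher in female flowers at stage 2 (2.73 ± 0.58), stage 3 (5.37 ± 0.79), stage 4 (3.62 ± 0.62) and stage 5 (6.84 ± 0.80), with edgeR FDR of 0.0079, 0.000244, 4.63e-05 and 1.22e-07, and missed the threshold at stage 1 (2.29 ± 0.56, edgeR FDR = 0.0126). The stage 2 call was lost without any of 5 of the 6 libraries, with edgeR FDR between 0.0194 and 0.0434, and when only F2 and M2 were fitted (edgeR FDR = 0.136).

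Of 11 tested members with other sesquiterpene names, 5 were higher and 0 lower in F5 than in M5, beside 17.6% and 11.6% of all tested genes. The fifth of them, Litchi_chinensis_newGene_1578, a copaene synthase by name that was picked after its values were seen, was at 2.22, 6.49 and 7.25 FPKM in F5 and at 0.0353, 0 and 0.0289 FPKM in M5. LITCHI000812.m1.gene, named only sesquiterpene synthase, had 0.159, 0.583 and 0.748 FPKM in F5 and no count in M5, and was at least 56.3-fold higher in F5. At stage 4 it was at 0.199, 0.180 and 0.179 FPKM in F4 and at 0, 0.059 and 0.0167 FPKM in M4 (2.60 ± 0.62, edgeR FDR = 0.00153), a call that was lost when only F4 and M4 were fitted (edgeR FDR = 0.0403) and without the third M4 library (edgeR FDR = 0.0119).

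Of 5 tested monoterpene names, 2 rose from stage 1 to stage 5 in female and 3 in male flowers, beside 7.44% and 15.3% of all tested genes, and 0 fell. LITCHI029391.m8.gene, a limonene synthase by name, was the most abundant member of the family at full bloom. It was measured at 0.935, 0.615 and 1.16 FPKM in F1, 83.6, 89.4 and 69.6 in F4, and 193.8, 182 and 143 in F5. In male flowers it was at 0.729, 0.954 and 0.247 FPKM in M1, 108, 135 and 172 in M4, and 319, 408 and 382 in M5. The sexes did not overlap at stages 4 and 5, and male libraries were higher. The gene rose by 7.49 ± 0.36 on the log2 scale from F1 to F5 and by 9.48 ± 0.40 from M1 to M5, and was lower in female flowers at stage 5 by -1.56 ± 0.27 (edgeR FDR = 3.2e-05). At stage 4 the difference of -0.99 ± 0.27 missed the fold change threshold (edgeR FDR = 0.00415).

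LITCHI029391.m1.gene, another entry of the same locus, was at 32.4, 23.7 and 22.6 FPKM in F5 and at 57.6, 52.2 and 66.2 FPKM in M5, and missed the threshold at stage 5 (-1.63 ± 0.58, edgeR FDR = 0.0185). The third entry, LITCHI029391.m2.gene, was at 0 in all open flowers other than 5.57 FPKM in the first F4 library and 21.2 FPKM in the second M5 library. When the counts of the 3 entries were summed, the difference at stage 5 was -1.62 (edgeR FDR = 1.24e-07). The locus sum was 165.4 to 226 FPKM in F5 and 377 to 481 FPKM in M5.

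The isoprene synthases by name are an enzyme group close in sequence to monoterpene synthases in other plants. They split into an opening pair and a bud pair. Their lengths implied by counts and FPKM were 448 bp for LITCHI021187.m1.gene, 2524 bp for LITCHI021188.m1.gene, 936 bp for LITCHI021184.m1.gene and 1285 bp for LITCHI021185.m1.gene. Whether some of these entries are parts of the same gene was not tested. In M5 the first had 11903 counts and the second 30367, although the FPKM of the first was higher. LITCHI021187.m1.gene was at 0.873, 0.201 and 0.966 FPKM in F1, 156, 139 and 127 in F4, and 129.9, 115 and 76.6 in F5. In male flowers it was at 0.481, 0.597 and 1.04 FPKM in M1, 118, 173 and 206 in M4, and 257, 297 and 259 in M5. The libraries overlapped at stages 1 and 4, and at stage 5 all male libraries were above all female libraries. It rose by 7.17 ± 0.40 in female and by 8.87 ± 0.42 in male flowers on the log2 scale from stage 1 to 5, and was lower in female flowers at stage 5 by -1.80 ± 0.29 (edgeR FDR = 1.1e-05). A call at stage 3 (-1.43 ± 0.32, edgeR FDR = 0.00961) was lost without any 1 of the 6 libraries compared, with edgeR FDR between 0.0277 and 0.0504.

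LITCHI021188.m1.gene was at 70.2, 60.2 and 58.1 FPKM in F4 and 56.1, 38.9 and 40.1 in F5, and at 51.7, 71.4 and 107 FPKM in M4 and 127, 126 and 119 in M5. Its stage 4 libraries overlapped, and its stage 5 libraries did not. It was lower in female flowers at stage 5 by -1.93 ± 0.24 (edgeR FDR = 3.37e-07). LITCHI021185.m1.gene and LITCHI021184.m1.gene, the bud pair, peaked in F2. LITCHI021185.m1.gene was at 4.56, 5.13 and 6.80 FPKM in F2 and at 0.0838, 0 and 0 in F5, against 0.284, 0.489 and 0.461 FPKM in M5 (-4.08 ± 0.91, edgeR FDR = 0.000492). That call was lost when only F5 and M5 were fitted (edgeR FDR = 0.0148).

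Within M4 the libraries differed in this set. The summed level of the isoprene names was 170, 244.5 and 312 FPKM in the first, the second and the third M4 library, and that of the monoterpene names was 155.9, 189.7 and 225 FPKM. In the same libraries the members without a single product name summed to 486, 457 and 338 FPKM.

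LITCHI021197.m2.gene, named terpene synthase 9, was high at partial bloom. It was measured at 3.09, 3.17 and 3.69 FPKM in F1, 146, 154.5 and 153 in F4, and 19.1, 14.2 and 7.63 in F5. In male flowers it was at 3.08, 3.43 and 1.85 FPKM in M1, 304.9, 311 and 222 in M4, and 77.6, 50.4 and 67.5 in M5. All M4 libraries were above all F4 libraries, and both sexes were lower at full than at partial bloom. It rose from stage 3 to stage 4 by 4.63 ± 0.31 in female and by 4.25 ± 0.30 in male flowers on the log2 scale. It was lower in female flowers at stage 4 by -1.10 ± 0.26 (edgeR FDR = 0.00147) and at stage 5 by -2.71 ± 0.28 (edgeR FDR = 1.73e-08). A call at stage 3 (-1.48 ± 0.27, edgeR FDR = 0.00209) was lost without the second or the third F3 library or the third M3 library (edgeR FDR = 0.0174, 0.0192 and 0.0111). The stage 4 fold change lay near the threshold of 1 and fell short of it with library-size scaling (-0.88).

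LITCHI021197.m6.gene, an entry of the same locus, was at 69.8, 63.7 and 63.95 FPKM in F4 and at 154, 124.6 and 98.3 FPKM in M4, with differences of -1.15 ± 0.23 at stage 4 (-0.93 with library-size scaling, which ends the call) and -2.47 ± 0.24 at stage 5 (edgeR FDR = 0.000242 and 6.63e-09). With the 5 entries of the locus summed the differences were -1.14 and -2.67. LITCHI021182.m1.gene, named terpene synthase 11, was at 5.31, 6.18 and 5.05 FPKM in F4 and 2.15, 1.47 and 1.38 in F5, against 16.4, 15.8 and 16.6 FPKM in M4 and 5.60, 2.74 and 4.62 in M5. The sexes did not overlap at either stage, and the differences were -1.78 ± 0.44 and -1.83 ± 0.44 (edgeR FDR = 0.00179 and 0.00105).

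The linalool and nerolidol synthases by name, which make floral alcohols, summed to between 12.5 and 29.6 FPKM in all libraries. Of the 5 tested, LITCHI028401.m1.gene alone was called between the sexes in buds. It was at 1.25, 0.971 and 1.10 FPKM in F1 and at 5.12, 5.02 and 4.07 FPKM in M1, without overlap, a difference of -2.15 ± 0.33 (edgeR FDR = 0.000278). In F4 it was at 11, 10.4 and 12.8 FPKM and in M4 at 5.46, 5.30 and 5.26 FPKM, a difference that missed the threshold (0.87 ± 0.31, edgeR FDR = 0.0238).

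In the gibberellin branch, chosen for mention after its values were seen, the ent-kaurene synthase LITCHI009739.m2.gene was at 12.6, 12.1 and 11.1 FPKM in F1 and 8.82, 9.05 and 7.49 in F5, but at 1.51, 1.05 and 1.31 FPKM in M5 after 10.7, 11.4 and 11.7 in M1. The M5 libraries lay under those of all other groups. It fell by 2.80 ± 0.17 on the log2 scale from M1 to M5 (FDR = 2.4e-12) and was higher in F5 than in M5 by 2.24 ± 0.17 (FDR = 1.31e-10). LITCHI029255.m1.gene, a geranyllinalool synthase by name that was also picked after its values were seen, was at 10.8, 9.55 and 13.3 FPKM in F5 and at 6.09, 7.70 and 6.17 FPKM in M5. It was at most 0.268 FPKM in every bud library and did not pass the test between the sexes at stage 5 (0.27 ± 0.56, edgeR FDR = 0.699).

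**Figure D3:**
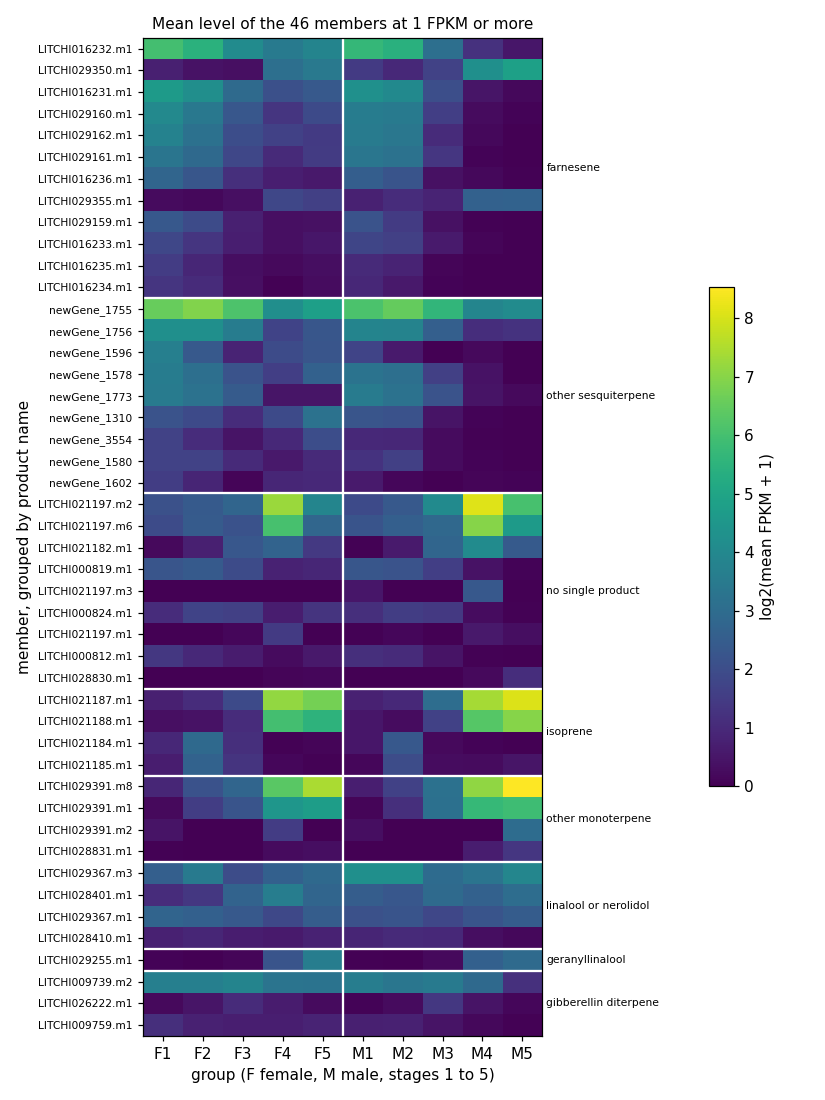
Mean level (log2 of FPKM + 1, n = 3) of the 46 members that reached 1 FPKM in some group, as rows grouped by product name, in the 10 groups as columns, with identifiers shown without the ending .gene and without the species prefix. Most farnesene and other sesquiterpene names have their highest mean in a bud column. LITCHI029350.m1.gene and LITCHI029355.m1.gene (highest in M5) and Litchi_chinensis_newGene_1310 and Litchi_chinensis_newGene_3554 (highest in F5) do not, and the limonene synthase LITCHI029391.m8.gene and the isoprene names LITCHI021187.m1.gene and LITCHI021188.m1.gene are bright in the columns of stages 4 and 5.

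Counted over the 63 tested members, fewer were called between the sexes in buds than in open flowers. The share of members called was still above that of all tested genes at each bud stage, but it rests on few calls, in part of the same genes. With 1 library left out the calls numbered 1 to 3 at stage 1, 1 to 3 at stage 2 and 2 to 3 at stage 3. At stage 1, 3 members were called, 0 higher and 3 lower in female flowers, where 1.32% of all tested genes were called, 0.402% higher and 0.923% lower. At stage 2 the count was 3, with 1 higher and 2 lower, against a background of 0.535% called, 0.194% higher and 0.341% lower. At stage 3 it was 4, with 1 higher and 3 lower, against 0.761% called, 0.348% higher and 0.413% lower. The members called in buds are those named above. DESeq2 called 3 higher and 4 lower at stage 1, 1 higher and 4 lower at stage 2, and 4 higher and 4 lower at stage 3.

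At stage 4, 15 members were called, 10 higher and 5 lower in female flowers, where 16.9% of all tested genes were called, 9.55% higher and 7.4% lower. At stage 5, 31 members were called, 22 higher and 9 lower, where 29.2% of all tested genes were called, 17.6% higher and 11.6% lower. Of the tested members 23.8% were called at stage 4 and 49.2% at stage 5. The median log2 fold change of the tested members was 0.57 at stage 4 and 2.01 at stage 5, beside -0.02 and 0.03 over all tested genes. With members at 0 in a group set to their bound, and those at or under 3 counts in both groups left out, the medians were 0.50 and 1.03. Scaling by library size alone moved the median of all genes to 0.19 and 0.50 at these stages. It also changed the stage 4 split from 66.7% of 15 called members higher in female flowers to 87.5% of 16. With all stages together 33 members were called between the sexes, and 0 were called in opposite directions at different stages.

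Product names of the members called at stage 5 differed in part between the 2 directions. Farnesene names and names without a single product were called in both. All 9 members that were lower in female flowers were LITCHI029350.m1.gene and LITCHI029355.m1.gene, 3 isoprene names, 1 limonene synthase and 3 without a single product name. Of the 22 that were higher, 10 had farnesene names, 5 other sesquiterpene names, 4 no single product name, 2 ent-kaurene synthase names and 1 a nerolidol synthase name. The 4 without a single product name include LITCHI023751.m1.gene, named a strigolactone esterase, which had 17 counts in F5 and 0 in M5. Of 4 tested geranyllinalool names, 0 were called. In log2 terms the member median was 4.55 for farnesene names and 3.75 for other sesquiterpene names, 4.10 and 4.30 with groups at 0 set to their bound, and it was -1.63 for monoterpene and -1.86 for isoprene names.

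**Figure D4:**
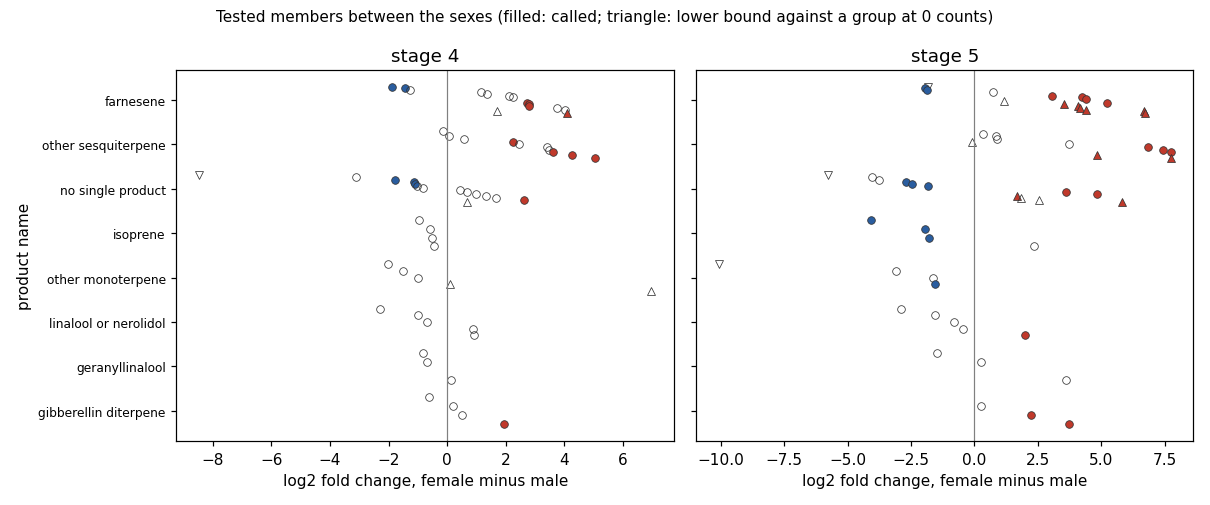
Log2 fold change, female minus male, of the tested members at stage 4 (left) and stage 5 (right), by product name on the vertical axis. Filled symbols were called, circles are fitted values and triangles are lower bounds for members at 0 counts in 1 sex, and members at or under 3 counts in both sexes are left out where 1 sex was at 0. At stage 5, 22 members were called higher and 9 lower in female flowers.

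Over development more members were called lower than higher. From stage 1 to stage 5, 28 members were called in female flowers, 11 higher and 17 lower at full bloom, against a background of 14.8% called, 7.44% higher and 7.31% lower. In male flowers 42 were called, 12 higher and 30 lower, against 36.8% called, 15.3% higher and 21.5% lower. The member medians were -0.98 in female and -3.52 in male flowers, or -1.28 and -2.60 with groups at 0 set to their bound, beside 0.00 and -0.08 over all tested genes. In both sexes 9 members were higher and 15 lower at full bloom, 4 were called in female flowers alone and 18 in male flowers alone, and 0 in opposite directions. A call in 1 sex alone does not show a difference. Farnesene names made up 7 of the female and 11 of the male members that fell, and other sesquiterpene names 5 and 9.

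The step from the last bud stage to partial bloom was the only step between neighbouring stages that was tested. The mean farnesene sum had dropped before it, from 142 FPKM in F1 to 36.6 in F3, and was 30.2 in F4. In male flowers this sum was 116 FPKM in M1, 19.9 in M3 and 26.1 in M4. From stage 3 to stage 4, 18 members were called in female flowers, 9 higher and 9 lower, where 12.1% of all tested genes were called, 4.56% higher and 7.51% lower. In male flowers 30 were called, 13 higher and 17 lower, where 20.4% were called, 7.73% higher and 12.6% lower. Among called members, the largest rises in female flowers at this step were those of LITCHI021188.m1.gene (5.78 ± 0.29) and LITCHI021187.m1.gene (5.60 ± 0.35).

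An interaction term tested whether the change from stage 1 to stage 5 differed between the sexes. This term passed for 22 members, 17 with a more positive change in female and 5 with a more positive change in male flowers, where 22.6% of all tested genes were called, 14.7% and 7.84%. The member median was 1.79, beside 0.07 over all tested genes, and scaling by library size alone moved the latter to 0.48.

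The enzymes that supply the precursors moved in part with the members. LITCHI006582.m1.gene, a 1-deoxy-D-xylulose-5-phosphate synthase (DXS, the first enzyme of the MEP route), was at 0.156, 0.108 and 0.0405 FPKM in F1 and 142, 154 and 171 in F4. At full bloom it was at 303, 169 and 113 FPKM in F5 and at 1097, 1145 and 1176 FPKM in M5, after 171, 382 and 679 FPKM in M4. The M5 libraries were far above the F5 libraries, and the M4 libraries differed among themselves in the same order as the isoprene and monoterpene sums. The gene was lower in female flowers at stage 5 by -3.0 ± 0.57 (edgeR FDR = 9.32e-05), and at stage 4 it missed the threshold (-1.62 ± 0.54, edgeR FDR = 0.0174).

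Summed over the MEP route, the level was 252 to 264 FPKM in F3 and 298 to 304.5 FPKM in M3, 452 to 680 FPKM in F5 and 1833 to 1910 FPKM in M5. LITCHI006582.m1.gene alone held 113 to 303 FPKM of this sum in F5 and 1097 to 1176 FPKM in M5. Of its 13 tested genes 2 were higher and 5 lower in F5 than in M5, beside 17.6% and 11.6% of all tested genes. A second DXS entry, LITCHI007204.m3.gene, was at 15.5 to 16.7 FPKM in F5 and 76.3 to 84.6 FPKM in M5 (-2.79 ± 0.32). The 2 higher ones were the DXS genes LITCHI016334.m1.gene, at 7.25 to 9.22 FPKM in F5 and 1.45 to 2.94 FPKM in M5 (1.45 ± 0.23), and LITCHI017048.m1.gene, at 7.53 to 9.59 and 2.65 to 2.86 FPKM (1.17 ± 0.14).

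Summed over the mevalonate route, the level was 511.6 to 527.7 FPKM in F1 and 482 to 499 FPKM in M1, and 414 to 496 FPKM in F5 and 381 to 409 FPKM in M5. Of its 15 tested genes 0 were higher and 2 lower in F5 than in M5, beside 17.6% and 11.6% of all tested genes. The 2 were the reductase gene LITCHI002211.m2.gene (-1.11 ± 0.14) and the decarboxylase gene LITCHI027125.m1.gene (-1.19 ± 0.18). Both missed the fold change threshold with library-size scaling (-0.64 and -0.72). The most abundant gene of the route was LITCHI009869.m1.gene, a 3-hydroxy-3-methylglutaryl-coenzyme A reductase, which commits carbon to it. This gene was at 107, 182.6 and 169 FPKM in F5 and at 56.95, 52.9 and 57.4 FPKM in M5. The fitted difference was just under the fold change threshold (0.98 ± 0.18). The fit used scaling factors of 1.05 to 1.16 in F5 and 0.774 to 0.812 in M5, which the FPKM values do not carry. Scaling by library size alone moved the median of all tested genes at stage 5 from 0.03 to 0.50, towards female flowers.

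Prenyl diphosphate synthases, which set the chain length offered to terpene synthases, were listed together with an isopentenyl diphosphate isomerase, which interconverts the building units. Of the 13 tested genes of this list, 4 were higher and 4 lower in F5 than in M5, beside 17.6% and 11.6% of all tested genes, and the isomerase was not among those called. LITCHI006692.m1.gene, a geranylgeranyl diphosphate synthase, was at 63.7 to 78.5 FPKM in F5 and 113 to 124.3 FPKM in M5 (-1.21 ± 0.09, and -0.74 with library-size scaling, which ends the call). LITCHI013955.m1.gene, a small subunit of the heterodimeric enzyme, was at 8.26 to 10.5 and 34.2 to 36.8 FPKM (-2.37 ± 0.17), and LITCHI008175.m1.gene, a geranylgeranyl diphosphate synthase, at 4.33 to 8.25 and 21.3 to 27.4 FPKM (-2.33 ± 0.40). In the other direction, the small subunit gene LITCHI013951.m1.gene was at 4.02 to 6.93 FPKM in F5 and 0.0338 to 0.185 FPKM in M5 (5.07 ± 0.51). The farnesyl diphosphate synthase LITCHI029851.m1.gene was at 0.660 to 3.79 and 0 to 0.0371 FPKM (6.48 ± 1.19). With 2 counts in M5 against 362 in F5, its ratio was 102.6 with a counting interval of 28.2 to 850.

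At the branch points to sterols and carotenoids, which compete for the same precursors, 0 genes were higher and 3 lower in F5 than in M5 of 6 tested, beside 17.6% and 11.6% of all tested genes. Phytoene synthase LITCHI008068.m1.gene was at 71.8 to 119 FPKM in F5 and 146 to 205 FPKM in M5 (-1.50 ± 0.21). LITCHI024247.m1.gene, another phytoene synthase by name, stayed under 1 FPKM, at 0 to 0.137 and 0.473 to 0.744 FPKM (-3.85 ± 1.02), and its call was lost when only F5 and M5 were fitted and without the second or the third F5 library or the third M5 library (edgeR FDR = 0.0235, 0.015, 0.015 and 0.0108).

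**Figure D5:**
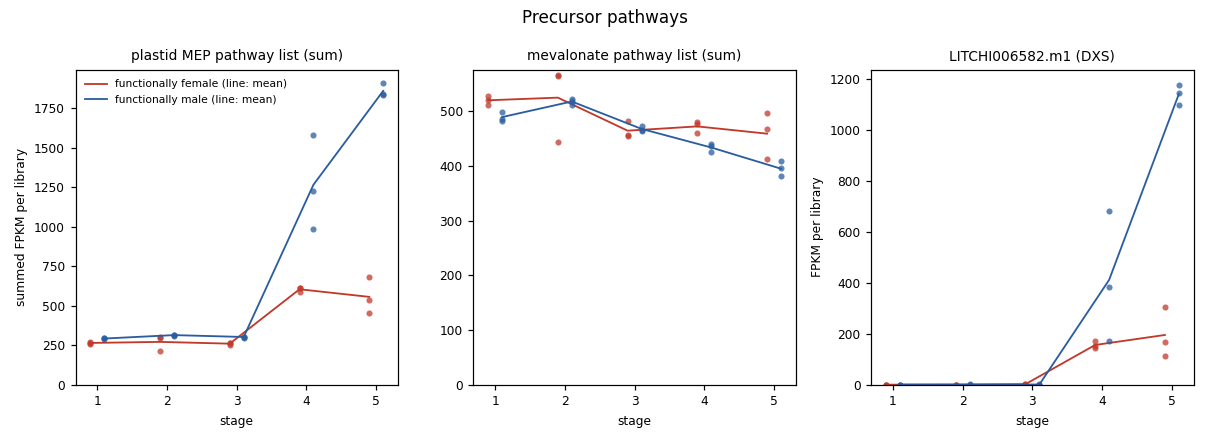
Summed FPKM of the MEP list (left) and the mevalonate list (middle) and FPKM of the DXS gene LITCHI006582.m1.gene (right) by stage, with 1 point per library, lines through means, female in red and male in blue. The MEP sum reached 1833 to 1910 FPKM in M5 against 452 to 680 FPKM in F5, while the mevalonate sum stayed between 381 and 567 FPKM in all libraries. The MEP sum includes LITCHI006582.m1.gene, at 1097 to 1176 FPKM in M5 and 113 to 303 FPKM in F5.

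Organ markers also differed between the sexes in open flowers, and not in 1 direction. Of 8 pollen genes, 7 were lower in female flowers at stages 4 and 5, where 7.4% and 11.6% of all tested genes were lower, and none was at 0 in any of these groups. Without the most abundant of them, their summed level was 9.08 to 9.34 FPKM in F4, 26.2 to 51.9 in M4, 15.4 to 32.9 in F5 and 78.7 to 133 in M5. With it, the sum was 248 to 284 FPKM in F5 and 203 to 246.6 FPKM in M5. FPKM values do not carry the scaling factors of the fit, 1.05 to 1.16 in F5 and 0.774 to 0.812 in M5. The direction of the sum over all 8 depends on that scaling. Of 11 tested tapetum and pollen wall genes, 1 was higher and 1 lower in female flowers at each of stages 4 and 5. The sum of all 13 listed was 34.7 to 37.2 FPKM in F4 and 32.7 to 80.7 in M4, which overlapped, and 33.0 to 66.1 in F5 and 23.4 to 30.6 in M5. Of the 13, 2 had no count in F4 and F5 and 3 had none in M4 and M5. Of 3 carpel and ovule genes, 2 were higher and 1 lower in F5 than in M5, with sums of 186 to 308 FPKM in F5 and 419.6 to 462.5 FPKM in M5. The part of organ composition in the differences of the terpene synthases was not tested, and in whole flowers fewer cells of a type and less RNA per cell cannot be told apart.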

How the data were processed

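RNA was sequenced from 30 libraries of whole litchi flowers. Before mapping, the study trimmed its reads (Trimmomatic) and removed rRNA, and the submitters' processing notes name HISAT2 2.0.4 and StringTie. The genome build is not given in the sources used here. The authors deposited raw read counts per gene, with 27433038 to 43760285 counts per library. They also deposited FPKM values for the same genes, which the authors scaled for transcript length and depth. Levels are printed as these FPKM values and tests used the counts. The deposited table also holds the authors' own fold changes and FDR values, which were not used, and 0 other sample columns were left out.

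Groups came from the sample labels. Genes with low counts were removed with filterByExpr, which left 27854 genes and removed 9380. Counts were scaled by the trimmed mean of M-values and fitted in R 4.3.3 with edgeR 4.0.16, using the quasi-likelihood test with all 10 groups in 1 model. Genes with a Benjamini-Hochberg FDR under 0.01 over all tested genes and a fold change of at least 2 were called. Standard errors are the log2 fold change over the square root of F. Folds against a group at 0 are bounds that set 3 counts over the group, and bounds and count ratios cover counting error only. The scripts were tested on simulated data.

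Alternatives were library-size scaling, no filter, a stricter filter, only the groups compared, counts summed by locus, a replicate block, each library left out, DESeq2 1.42.0, and limma 3.58.1 on log2(FPKM + 1) or log2(FPKM + 0.1). Nothing in the labels says that replicates came from separate trees, so p-values measure the spread between these samples, which may be technical.

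The members, lists and tests were chosen with earlier results of these data known. Named genes were LITCHI029350.m1.gene, the 10 members with the highest group mean FPKM, up to 5 called members per direction at stages 4 and 5 by fold change, the 3 members most correlated with LITCHI029350.m1.gene, up to 5 called members per bud stage, and per pathway list its most abundant gene and up to 2 called genes per direction at stage 5. No sequence is printed.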

Additional observations from a re-analysis of the deposited data

Results flagged for a closer look

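The change from stage 1 to stage 5 differed between female and male flowers, by edgeR's test of the interaction, for 22 tested members, where 22.6% of all tested genes were called. Values are log2 differences, the female change minus the male change. Among farnesene names it was 4.15 for LITCHI016232.m1.gene, 3.95 for LITCHI016231.m1.gene, 7.04 for LITCHI016235.m1.gene and 10.28 for LITCHI029161.m1.gene. Among germacrene D and copaene names it was 7.66 for Litchi_chinensis_newGene_1310, 10.07 for Litchi_chinensis_newGene_3554, 4.55 for Litchi_chinensis_newGene_1596 and 7.88 for Litchi_chinensis_newGene_1580. It was 8.98 for LITCHI000812.m1.gene, named sesquiterpene synthase. The fitted values of LITCHI016235.m1.gene, LITCHI029161.m1.gene, Litchi_chinensis_newGene_3554, Litchi_chinensis_newGene_1580 and LITCHI000812.m1.gene involve a group at 0 counts and are no bounds. That of LITCHI016235.m1.gene turned to -0.21 with limma at a pseudocount of 1.

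The difference was in the other direction, with the more positive change in male flowers, for LITCHI029391.m8.gene (-2.0), LITCHI021197.m2.gene (-2.89), LITCHI021197.m6.gene (-2.07), LITCHI021182.m1.gene (-4.33) and LITCHI021185.m1.gene (-6.29). LITCHI021185.m1.gene fell in female flowers (-4.26), while its positive change in male flowers (2.03) did not pass the test (edgeR FDR = 0.03).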

How the results depend on the processing

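Counts of called members at the bud stages depended on the setting, and the cause was not tested. At stage 1, 3 members became 7 with DESeq2, 5 with counts summed by locus and 6 with limma at a pseudocount of 0.1. At stage 2, 3 became 5 with DESeq2 and 0 when only the groups compared were fitted in edgeR, where 45 members were tested, while the fit over all groups had 9 at an unadjusted p under 0.05. At stage 3, 4 became 8 with DESeq2 and 8 when only the groups compared were fitted. At stage 5, 31 became 18 with limma at a pseudocount of 1. The stage 1 to 5 difference between the sexes for LITCHI016235.m1.gene reversed from 7.04 to -0.21 with limma at a pseudocount of 1.

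With 1 library left out, called members numbered 1 to 3 at stage 1, 1 to 3 at stage 2, 2 to 3 at stage 3, 15 to 17 at stage 4 and 27 to 30 at stage 5. They numbered 21 to 26 from F1 to F5, 39 to 40 from M1 to M5, 15 to 18 from F3 to F4, 25 to 28 from M3 to M4 and 22 to 26 in the interaction. The count was 1 without the first or second F1 or the third M1 library at stage 1 and without the first M2 library at stage 2, and 2 without the second or the third F3 or the third M3 library at stage 3. Over all named results, 72 calls were lost and 1134 results kept their direction and side of the threshold with 1 library left out, and 121 were lost and 1473 kept under the other settings.

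No pairing by replicate number was seen, as correlations of same-numbered deviations lay between -0.0492 and 0.0346. This check cannot show how the samples were collected. With the replicate block the counts at stages 1 to 5 were 3, 2, 3, 15 and 29, those from F1 to F5, M1 to M5, F3 to F4 and M3 to M4 were 25, 39, 18 and 31, and that of the interaction was 22. At these depths a member listed at 0 in a group is not shown to be absent.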
